A study of Mus musculus with 9 samples.

Results

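Hypoxia-inducible factors (HIFs) switch on a broad set of genes when oxygen is short, and 10 of those genes that do not encode glycolytic enzymes are described here. They are Bnip3, Bnip3l, Ndrg1, Egln1, Egln3, Ankrd37, Ddit4, Kdm3a, Vegfa and P4ha1. Each was taken from the count table by its mouse gene symbol, and all 10 were found among the 16636 genes listed. The group was chosen by a measured value: Bnip3 had stood out in earlier results of these data for its difference between cells given control siRNA and untreated cells, and the others were added as targets of the same kind. The differences of the transfected groups from untreated cells are therefore described for these 10 genes without a test. The other comparisons were tested.

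The cells were E14 mouse embryonic stem cells, a wild-type line, grown on fibronectin in a serum-free medium with LIF and inhibitors of MEK and GSK3 (2i), conditions that hold the naive state. The 3 groups of 3 libraries were untreated cells, cells given control siRNA against luciferase (siLuc) and cells given siRNA against Stag3 (siStag3), a cohesin subunit. The siRNA groups were treated for 48 h, with 50 pmol of siRNA at each of 2 lipid transfections. Untreated cells received no transfection, so siLuc differs from them in the transfection itself as well as in the siRNA. The labels describe no low-oxygen culture, and nothing in them says whether the libraries of a group came from separate cultures, so the tests measure the spread between these libraries, which may be technical.

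In the HIF pathway, an oxygen-labile alpha subunit (Hif1a or Epas1) pairs with Arnt and binds short DNA elements with the core ACGTG. In oxygenated cells, prolyl hydroxylases of the Egln family mark the alpha subunit for ubiquitination by the Vhl complex, and Egln1 and Egln3 are themselves HIF targets, which closes a feedback loop. Bnip3 and Bnip3l encode receptors on the outer mitochondrial membrane that recruit autophagosomes to mitochondria. Ddit4 encodes an inhibitor of mTORC1 signalling, Ndrg1 a stress-responsive cytosolic protein, Kdm3a a histone demethylase, P4ha1 a catalytic subunit of collagen prolyl hydroxylase, Vegfa a secreted growth factor for blood vessels and Ankrd37 a protein with ankyrin repeats.

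The promoters of Bnip3, P4ha1 and Ddit4 are shown, a choice made by likeness to Bnip3. Of the 10 genes, P4ha1 and Ddit4 followed Bnip3 most closely across the libraries, with Ankrd37 too low to be compared. Each line gives the 250 bases before the RefSeq start (GRCm38.p6), 5′ to 3′ on the strand of the gene, in lower case. Capitals mark ACGTG (the core of the HIF site), and the variant GCGTG, on either strand; on the opposite strand the first reads CACGT and the other reads CACGC.
Bnip3, chr7:138909507-138909756, minus strand: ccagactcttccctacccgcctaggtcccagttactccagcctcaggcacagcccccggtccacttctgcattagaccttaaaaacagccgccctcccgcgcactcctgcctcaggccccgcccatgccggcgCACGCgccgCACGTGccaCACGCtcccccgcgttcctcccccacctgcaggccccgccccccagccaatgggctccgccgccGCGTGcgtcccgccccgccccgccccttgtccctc
P4ha1, chr10:59323046-59323295, plus strand: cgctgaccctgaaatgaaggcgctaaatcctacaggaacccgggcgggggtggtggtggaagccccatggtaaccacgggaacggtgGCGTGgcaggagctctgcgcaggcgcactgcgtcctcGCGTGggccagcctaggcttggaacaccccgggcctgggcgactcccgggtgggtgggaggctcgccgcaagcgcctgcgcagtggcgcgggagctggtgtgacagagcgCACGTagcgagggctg
Ddit4, chr10:59951771-59952020, minus strand: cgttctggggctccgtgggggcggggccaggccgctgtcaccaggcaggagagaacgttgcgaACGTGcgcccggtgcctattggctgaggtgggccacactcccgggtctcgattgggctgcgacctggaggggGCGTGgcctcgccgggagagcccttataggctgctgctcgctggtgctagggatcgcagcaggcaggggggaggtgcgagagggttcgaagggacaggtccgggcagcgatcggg
The Bnip3 window held 5 matches on the 2 strands together, 2 of ACGTG and 3 of GCGTG. Its ACGTG matches overlap, one on each strand. As many matches or more were found in 1.01% of the 32851 promoter windows searched. P4ha1 had 1 match to ACGTG and 2 to GCGTG, and Ddit4 had 1 of each. Of the genes not shown, Ankrd37 had 2 of each, Egln1 had 1 of each and Egln3 had 1 of ACGTG alone. Kdm3a had 1 of GCGTG and Vegfa 1 of each, in the window of 1 start only. Sequence was at hand for 8 of the 10 genes, in 11 windows, since Kdm3a and Vegfa have several starts. Either motif was present in 72.7% of those windows and in 38.6% of all windows, and ACGTG in 63.6% against 16.6%. The genes were picked as HIF targets, so a higher share is part of that choice and is no separate evidence. Windows of identical sequence were counted once for these genes but were all kept among the 32851. A match describes the letters in the window and is no evidence of binding.

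Sequencing depth was 29332436 to 44527534 counts per library. At that depth 3 counts, used as the floor of detection, correspond to 0.0674 to 0.102 counts per 1000000 counts (CPM), a limit that covers counting error only. The 8 stem cell markers were Pou5f1, Sox2, Nanog, Klf4, Esrrb, Zfp42, Tfcp2l1 and Tbx3. All 8 exceeded 10 CPM in every library, at a summed 4545 to 5004 CPM. The 5 fibroblast markers in the table summed to 1.34 to 2.52 CPM and the 6 primitive endoderm markers to 1.85 to 3.82 CPM. Stag3, the knockdown target, was at 24.1, 24.3 and 28.6 CPM in untreated cells, 22.5, 23.4 and 26.7 in siLuc and 13.5, 15.2 and 15.6 in siStag3. Its log2 difference between siStag3 and siLuc was -0.71 (SE 0.0722, edgeR adjusted p 0.00205), and this call was lost without the set term described next and without the experiment 1 siStag3 library of Set 1. The columns are also numbered by set (1 or 3) and by experiment, terms that the labels do not explain. Each group has 2 libraries of Set 1 (experiments 1 and 3) and 1 of Set 3, which is experiment 1 in siLuc and experiment 5 in the other groups. The sets differed in 42.7% of the 14246 genes tested, so all comparisons were made with the set as a term of the model. That choice was made with the results of both designs known. Without the set term, 1 gene of all those tested passed in siLuc against untreated cells, 2 in siStag3 against untreated cells and 0 in siStag3 against siLuc (307 at an unadjusted p under 0.05), where 598, 361 and 4 passed with it in edgeR. The spread between libraries, as edgeR's biological coefficient of variation, came to 7.62% with the set term and 14.6% without it.

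Expressed per kilobase of transcript, so that genes can be compared, the 10 genes spanned a wide range of levels. Kdm3a was highest, with a median over the 9 libraries of 41.2 CPM per kilobase (range 36.7 to 45.4). Bnip3l followed at 27.7 (20.02 to 31.45) and Ddit4 at 14.4 (11.1 to 16.4). The ranges of these neighbours in the order did not overlap. Bnip3 came next at 6.56, with the widest relative range (3.55 to 12.1), which overlapped that of Ddit4 above it and of P4ha1 below it. P4ha1 (5.78) and Vegfa (4.81) overlapped the genes above and below them, and Ndrg1 (4.25) overlapped Vegfa. Egln1 (2.49) lay below all values of Ndrg1 and above all values of Ankrd37 (1.46), and Egln3 (1.06), the lowest of the 10, overlapped Ankrd37. Bnip3 thus sat at the 53.1 percentile of the tested genes, and Egln3 at 26.6.

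**Figure D1:**
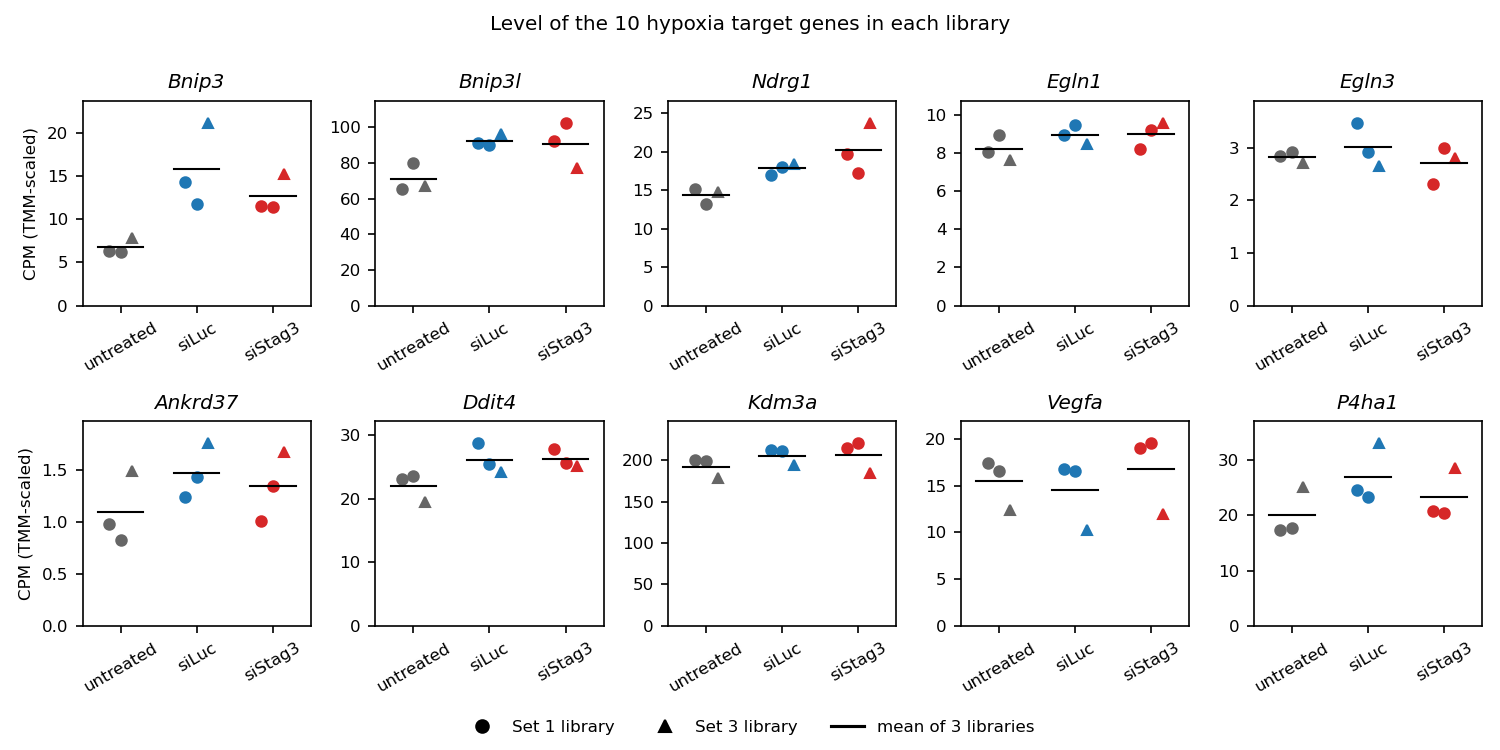
CPM of each of the 10 genes in every library, with TMM scaling. Circles are Set 1 libraries, triangles Set 3 libraries and bars the mean of 3 libraries. Bnip3 lay between 6.23 and 7.82 in untreated cells and between 11.5 and 21.2 in the transfected libraries, and Vegfa was lowest in the Set 3 library of each group.

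Bnip3 showed the largest difference among the 10 genes between control siRNA and no transfection. Its counts ran from 211 to 673 per library. In untreated cells it was at 6.37 and 6.23 CPM in Set 1 and 7.82 in Set 3. The siLuc libraries, listed likewise, held 14.4, 11.8 and 21.2 CPM, and those of siStag3 11.5, 11.5 and 15.3. Every transfected library lay above every untreated one, while siLuc and siStag3 overlapped. The means were 6.81 ± 0.881, 15.8 ± 4.84 and 12.8 ± 2.21 CPM (SD, n = 3). The log2 difference of siLuc from untreated cells was 1.19 (SE 0.105, 95% interval 0.97 to 1.42), a 2.29-fold higher level. Bnip3 ranked 35 among the 14246 genes from the highest difference down. Within Set 1 the log2 difference was 1.04 and within Set 3, with 1 library a group, 1.43. The difference of siStag3 from untreated cells, which shares the untreated libraries, was 0.91 (95% interval 0.68 to 1.13), with 0.86 in Set 1 and 0.96 in Set 3. Without the Set 3 siLuc library, the highest of the 9, the log2 difference of siLuc was 1.08.

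Bnip3l, the paralog of Bnip3 and a mitophagy receptor as well, differed less. It was at 65.2, 80.2 and 67.2 CPM in untreated cells, 91.5, 90.2 and 96.2 in siLuc and 92.3, 102.5 and 77.2 in siStag3. The siLuc libraries lay above the untreated ones, whereas the Set 3 siStag3 library fell inside the untreated range. The log2 difference was 0.39 (SE 0.0925, 95% interval 0.19 to 0.59) for siLuc and 0.35 (0.15 to 0.55) for siStag3, each against untreated cells. The relative size of the Bnip3 and Bnip3l values carries a limit of the counting. Of the 31-base stretches in Bnip3 transcripts, 57% also occur in transcripts of 6 other genes, and 23.7% of those in Bnip3l occur in its pseudogene Bnip3l-ps. How the counting treated such reads is not given in the sources used here.

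The oxygen sensors Egln1 and Egln3 stayed close to their untreated levels. Egln1 was at 7.67 to 8.98 CPM in untreated cells, 8.47 to 9.49 in siLuc and 8.23 to 9.60 in siStag3, with overlap of all groups. Its log2 difference from untreated cells was 0.13 in siLuc (95% interval -0.09 to 0.35) and 0.13 in siStag3 (-0.09 to 0.35). Egln3 was at 2.71 to 2.92 CPM in untreated cells, 2.65 to 3.47 in siLuc and 2.30 to 2.99 in siStag3. Its differences were 0.09 (-0.23 to 0.41) and -0.07 (-0.39 to 0.25). These intervals leave room for changes of up to 0.41 on the log2 scale.

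Among the stress and growth regulators, Ndrg1 and Ddit4 were moderately higher in both transfected groups. Ndrg1 was at 15.2, 13.3 and 14.8 CPM in untreated cells, 17.0, 18.0 and 18.4 in siLuc and 19.8, 17.2 and 23.8 in siStag3. Every transfected library exceeded every untreated one. The log2 difference was 0.31 in siLuc (SE 0.0928) and 0.49 in siStag3 (SE 0.0924). Ddit4 was at 23.1, 23.5 and 19.5 CPM in untreated cells, 28.8, 25.4 and 24.2 in siLuc and 27.8, 25.6 and 25.2 in siStag3. Again the transfected libraries lay above the untreated ones, with log2 differences of 0.25 in siLuc (SE 0.0737) and 0.25 in siStag3 (SE 0.0738).

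P4ha1 and Kdm3a, enzymes that need oxygen as the Egln proteins do, differed from untreated cells by unequal amounts. P4ha1 was at 17.3, 17.7 and 25.1 CPM in untreated cells, 24.5, 23.4 and 33.1 in siLuc and 20.9, 20.5 and 28.6 in siStag3. The groups overlapped because Set 3 was higher throughout, but within each set the order was untreated, siStag3, siLuc. The log2 difference was 0.43 in siLuc (SE 0.0641, 0.45 in Set 1 and 0.40 in Set 3) and 0.22 in siStag3 (SE 0.0646). Kdm3a, at 177.9 to 220.5 CPM over all libraries, differed by 0.10 in siLuc (95% interval -0.01 to 0.21) and by 0.10 in siStag3 (-0.01 to 0.21).

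Vegfa, the secreted ligand of the group, was the gene with a negative difference in siLuc. It was at 17.4, 16.6 and 12.35 CPM in untreated cells, 16.8, 16.6 and 10.2 in siLuc and 19.0, 19.5 and 11.9 in siStag3. The low value in each group was its Set 3 library. The log2 difference from untreated cells was -0.11 in siLuc (95% interval -0.28 to 0.06) and 0.10 in siStag3 (-0.07 to 0.27). Ankrd37, the least abundant in CPM, ran from 0.827 to 1.76 CPM and differed by 0.44 in siLuc (0.02 to 0.86) and 0.29 in siStag3 (-0.14 to 0.72). Its transcripts share 21.4% of their 31-base stretches with other genes, mostly Lrp2bp, and it overlaps Ufsp2. The strand setting of the counting is not given in the sources used here.

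**Figure D2:**
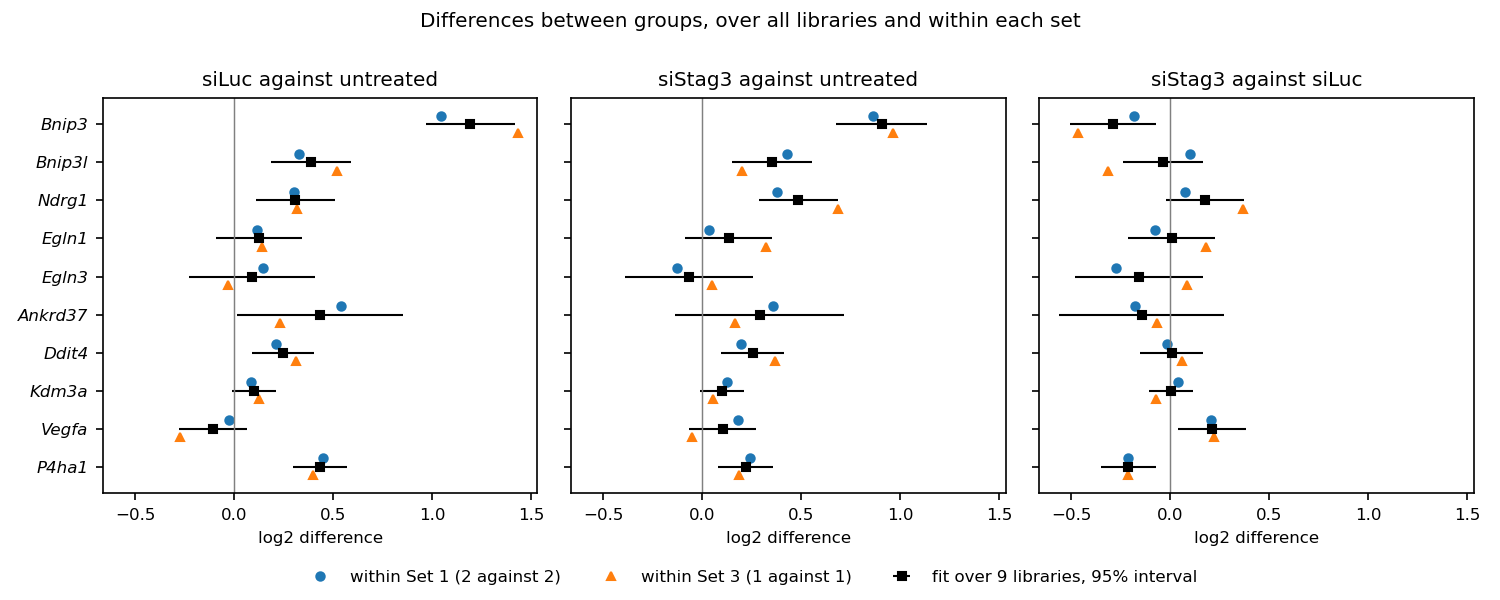
Log2 difference of each gene in 3 comparisons. Squares with bars are the model over 9 libraries with its 95% interval, circles the difference within Set 1 and triangles the difference within Set 3. Bnip3 stands at 1.19 for siLuc against untreated cells, and 9 of the 10 squares in that panel lie above 0.

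Relative to untreated cells, siLuc had higher levels of 9 of the 10 genes and a lower level of 1, at a median log2 difference of 0.278 against -0.00242 for all genes tested. Without Bnip3 the median was 0.247. Levels did not overlap for Bnip3, Bnip3l, Ndrg1 and Ddit4, 4 of 10, all higher, where 9.59% of all genes were higher without overlap and 10.3% lower. In siStag3 against untreated cells 9 of 10 were higher, at a median of 0.237. Levels did not overlap for Bnip3, Ndrg1 and Ddit4, all higher, against 4.63% of all genes higher and 5.38% lower. Since the group was chosen with these comparisons in view, nothing is read from these shares. The sign of Egln3, near 0 in both, turned to -0.0083 in siLuc and to 0.0668 in siStag3 without the experiment 1 library of Set 1 of the respective group. Of all genes tested in edgeR, 4.2% passed in siLuc against untreated cells (1.65% higher, 2.55% lower) and 2.53% in siStag3 against untreated cells (1.07% higher, 1.46% lower). The comparisons share the untreated libraries and are not independent.

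Other features moved with transfection. Mitochondrial transcripts made up 3.48% to 5.33% of counts in untreated libraries, 5.98% to 6.73% in siLuc and 4.10% to 6.78% in siStag3. Genes of low GC content tended to have positive differences in siLuc (Spearman correlation across 14226 genes -0.484, genes not being independent). The correlation was -0.311 in siStag3 against untreated cells. In siStag3 against siLuc it was 0.373, so genes of low GC content tended to be lower there. Transcripts of the 10 genes ran from 41.6% GC in Bnip3 to 57.9% in Ddit4. After a correction for GC content the siLuc difference was 1.03 for Bnip3 and 0.37 for P4ha1. It became 0.23 for Bnip3l, 0.01 for Kdm3a, 0.41 for Ddit4 and 0.25 for Egln1. All 5 mesendoderm markers together were at 10.3 to 11.5 CPM in untreated cells, 8.02 to 10.1 in siLuc and 7.56 to 8.795 in siStag3. The lowest values among them were those of Foxa2 and Mixl1, each under 1 CPM in every library. The markers did not all move the same way. Mean T went from 4.815 CPM without transfection to 2.864 (siLuc) and 2.345 (siStag3). Mean Eomes was higher after transfection, at 3.322 CPM (siLuc) and 2.665 (siStag3) beside 2.496 without it. Gsc, Mixl1 and Foxa2 had lower means in both transfected groups. Libraries of Eomes overlapped the untreated ones in both groups, and those of T did so with siLuc. In RNA from whole cultures, fewer cells of a type and less RNA per cell cannot be told apart. The part of these features in the differences was not tested.

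The comparison of siStag3 with siLuc asks what a partial knockdown of Stag3, to 0.613-fold of its siLuc level, adds to transfection. It shares the siLuc libraries with the comparison of siLuc and untreated cells. None of the 10 genes passed the threshold in edgeR, where 0.0281% of all genes tested did (0.014% higher and 0.014% lower), and none passed with DESeq2. An unadjusted p under 0.05 was found for 3 of the 10 and for 1122 of the 14246 genes. Levels of all 10 genes overlapped between the groups, while 3.18% of all genes were higher and 3.41% lower in siStag3 without overlap. Bnip3 was lower by 0.29 on the log2 scale in siStag3 (log2 difference -0.29, SE 0.101, 95% interval -0.51 to -0.07, edgeR p 0.0133, adjusted p 0.493). It was -0.18 in Set 1 and -0.47 in Set 3, and -0.17 when the Set 3 siLuc library was left out. Bnip3 was chosen by its difference in these same siLuc libraries, and that choice favours a negative value here. Its p and interval are therefore not free of the choice. P4ha1 was at -0.21 (95% interval -0.35 to -0.07, edgeR p 0.00519, adjusted p 0.43), with -0.21 in each set. Vegfa was at 0.21 (0.04 to 0.38, edgeR p 0.0201, adjusted p 0.526), with 0.20 in Set 1 and 0.22 in Set 3.

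For the other 7 genes the interval of the siStag3 to siLuc difference included 0. Kdm3a had the narrowest, from -0.11 to 0.11, and Ddit4 ran from -0.15 to 0.17. Bnip3l ran from -0.24 to 0.16, Egln1 from -0.21 to 0.23 and Ndrg1 from -0.02 to 0.37. The intervals of the genes with the fewest counts were widest, from -0.48 to 0.17 for Egln3 and from -0.56 to 0.27 for Ankrd37. The median of the 10 genes was -0.0174, against -0.00479 for all genes. With 3 libraries a group, differences inside these intervals remain possible. The intervals are no limit of detection, since those of Bnip3, P4ha1 and Vegfa left out 0 and the genes did not pass.

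The sets divided the 10 genes in both directions. Bnip3, Ankrd37 and P4ha1 were higher in Set 3 than in Set 1, and Ddit4, Kdm3a and Vegfa were lower, so 6 of 10 passed in edgeR, against 42.7% of all genes tested (21.4% higher, 21.2% lower). The log2 difference was 0.48 for Bnip3 (SE 0.0879, edgeR adjusted p 0.000763), 0.49 for P4ha1 (SE 0.0544, adjusted p 2.51e-05) and 0.54 for Ankrd37 (SE 0.164, adjusted p 0.0171). Vegfa was lower by 0.62 on the log2 scale (log2 difference -0.62, SE 0.0707, edgeR adjusted p 3.02e-05). It was at 16.6 to 19.5 CPM in Set 1 and 10.2 to 12.35 in Set 3, with no overlap. Kdm3a (-0.17, adjusted p 0.00712) and Ddit4 (-0.17, adjusted p 0.048) were lower in edgeR. Levels did not overlap for P4ha1 and Ankrd37, which were higher (13.3% of all genes), and for Kdm3a and Vegfa, which were lower (13%). The call of Ankrd37 was lost without the untreated or the siStag3 library of Set 3 (edgeR adjusted p 0.117 and 0.0576), and with the DESeq2 test (adjusted p 0.0623). That of Ddit4 was lost in 6 of the 9 fits that left out 1 library (highest edgeR adjusted p 0.27), with DESeq2 (adjusted p 0.0715), under total-count scaling and without the low-count filter (edgeR adjusted p 0.184 and 0.0608). After correction for GC content Ddit4 was at -0.40 (edgeR adjusted p 3.17e-05), and the call of Kdm3a was lost (-0.06, edgeR adjusted p 0.165). The 6 leave-one-out fits for Ddit4 left out either Set 1 untreated library, the Set 3 untreated or siLuc library, or the experiment 1 siLuc or siStag3 library of Set 1. What separates the sets is not described in the labels.

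**Figure D3:**
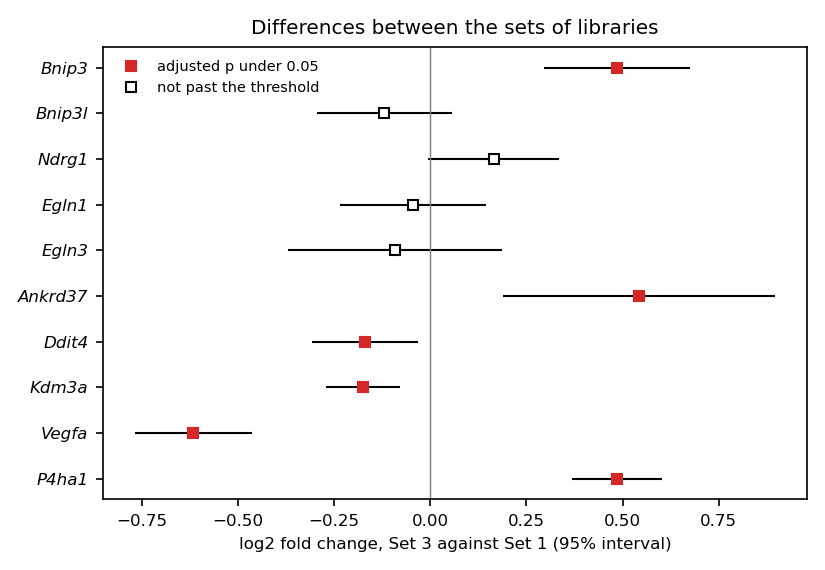
Log2 difference of Set 3 from Set 1 for each gene, with its 95% interval, from the model that also holds the group. Filled squares passed an adjusted p of 0.05. Vegfa lies at -0.62, and Bnip3, Ankrd37 and P4ha1 lie between 0.48 and 0.54.

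Next come transcripts of the HIF system itself. None of its 15 listed genes passed the threshold in edgeR in siLuc against untreated cells, and the median log2 difference was 0.0656. An unadjusted edgeR p under 0.05 was found for 5 of the 15, and 2 passed with DESeq2. Among all 14246 genes tested, 3964 and 1328 did so. Hif1a was at 115, 122 and 97.1 CPM in untreated cells, 139, 136 and 127 in siLuc and 135, 139 and 95.9 in siStag3. The siLuc libraries were above the untreated ones, with a log2 difference of 0.27 (SE 0.0725, edgeR adjusted p 0.0507). Hif1a passed in 6 of 19 alternatives and its difference was 0.11 at the smallest. Epas1 differed by 0.19, Arnt by -0.05, Vhl by 0.12 and Hif1an, which encodes the asparaginyl hydroxylase of the HIF alpha subunits, by -0.06. Egln2, the prolyl hydroxylase not counted among the targets, differed by -0.27 (edgeR adjusted p 0.0636). Arnt2, a partner of the alpha subunits, had the largest difference of the 15, at 0.46 (edgeR adjusted p 0.0784). Its siLuc libraries lay above the untreated ones. HIF activity is set largely by the stability of the alpha protein, which these data do not measure. In siStag3 against untreated cells, 2 of the 15 passed and both were higher. Arnt2 rose by 0.74 (edgeR adjusted p 0.0158, from 2.14 ± 0.104 to 3.60 ± 0.628 CPM, n = 3). Epas1 rose by 0.34 (edgeR adjusted p 0.0386). Each of these passed in 5 of the 9 fits that left out 1 library. No gene of this or any list below passed without the set term. All these lists were chosen with earlier results of these data known, so their counts and p-values are not free of that choice. Beside the counts of these lists, 1.65% of all genes tested were higher and 2.55% lower in siLuc against untreated cells in edgeR. In siStag3 against untreated cells the shares were 1.07% and 1.46%.

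Of the other listed HIF targets that are not glycolytic, 28 were tested. In siLuc against untreated cells 3 rose and 1 fell in edgeR, with a median log2 difference of 0.173. Pdk1, the kinase that holds back pyruvate dehydrogenase, was at 31.6, 35.2 and 26.1 CPM in untreated cells and 50.7, 49.15 and 46.7 in siLuc. Its log2 difference was 0.67 (SE 0.0725, edgeR adjusted p 0.000393), and it passed in 18 of 19 alternatives, the exception being the fit without the set. Tfrc, the transferrin receptor, rose by 0.64 (edgeR adjusted p 0.049). Ppfia4, a liprin, fell by 0.30 (edgeR adjusted p 0.0355). The calls of Tfrc and Ppfia4 held in 2 and 3 of the 9 fits that left out 1 library, and that of Ppfia4 was lost with the GC correction. In siStag3 against untreated cells Pdk1 rose by 0.56 and Ppfia4 fell by 0.30 (edgeR adjusted p 0.00112 and 0.0452), the latter in 3 of the 9 fits that left out 1 library.

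The glycolytic HIF targets are the nearest group for comparison. In siLuc 5 of 19 rose and none fell in edgeR, beside 1.65% and 2.55% of all genes tested. The median log2 difference was 0.171, beside the 0.278 of the 10 genes above. Slc16a3, which encodes a lactate exporter, had the largest difference (2.24, edgeR adjusted p 0.000335), from 0.473 to 1.47 CPM in untreated cells to 2.35 to 6.08 in siLuc. Ldha rose by 0.49, Pfkl by 0.47 and Pgk1 by 0.32 (edgeR adjusted p 0.000393, 0.00323 and 0.00751). Of these, Pgk1 did not pass without the Set 3 untreated library. In siStag3 against untreated cells 8 of 19 rose in edgeR, beside 1.07% of all genes tested. Among the 8, Slc16a3 rose by 2.40, Ldha by 0.57, Pfkl by 0.53 and Tpi1 by 0.43 (edgeR adjusted p 9.96e-05, 9.96e-05, 0.00138 and 0.00092). Between the sets 13 of 19 were higher in Set 3 and none lower in edgeR, whereas the 10 genes split into 3 higher and 3 lower, beside 21.4% and 21.2% of all genes tested. This list was also chosen with earlier results of these data known, so its counts are no independent evidence. Whether these groups of genes differ from each other was not tested.

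The remaining lists hold genes that act beside the 10. Of 19 mitophagy receptors and autophagy genes tested, none rose and 1 fell in edgeR in siLuc against untreated cells, at a median of -0.0733. In siStag3 against untreated cells none of the 19 passed in edgeR, 4 had an unadjusted edgeR p under 0.05 and 1 passed with DESeq2. For all 14246 genes tested, 2417 had an unadjusted edgeR p under 0.05 there and 415 passed with DESeq2. Of 11 paralogs tested, Ddit4l, a relative of Ddit4 that also restrains mTORC1, rose by 0.49 in siLuc and 0.42 in siStag3 (edgeR adjusted p 0.00415 and 0.011). Of 4 VEGF receptors tested, none passed in siLuc with edgeR or DESeq2. The co-receptor Nrp2 had the 1 unadjusted p under 0.05 there (log2 difference 0.25, edgeR adjusted p 0.0662). In siStag3 against untreated cells Nrp2 rose by 0.39 (edgeR adjusted p 0.0146). Of 10 other regulators and stress partners of Ddit4, 1 fell in siLuc, Cdkn1a, a cell cycle inhibitor (log2 difference -0.35, edgeR adjusted p 0.0197). Cdkn1a, Ddit4l in siStag3 and Nrp2 passed in 5, 7 and 6 of the 9 fits that left out 1 library. In siStag3 against siLuc none of the 106 genes of the 7 lists passed in edgeR, with DESeq2 or in the other alternatives. An unadjusted edgeR p under 0.05 was found for 7 of them, and for 1122 of all 14246 genes tested.

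**Figure D4:**
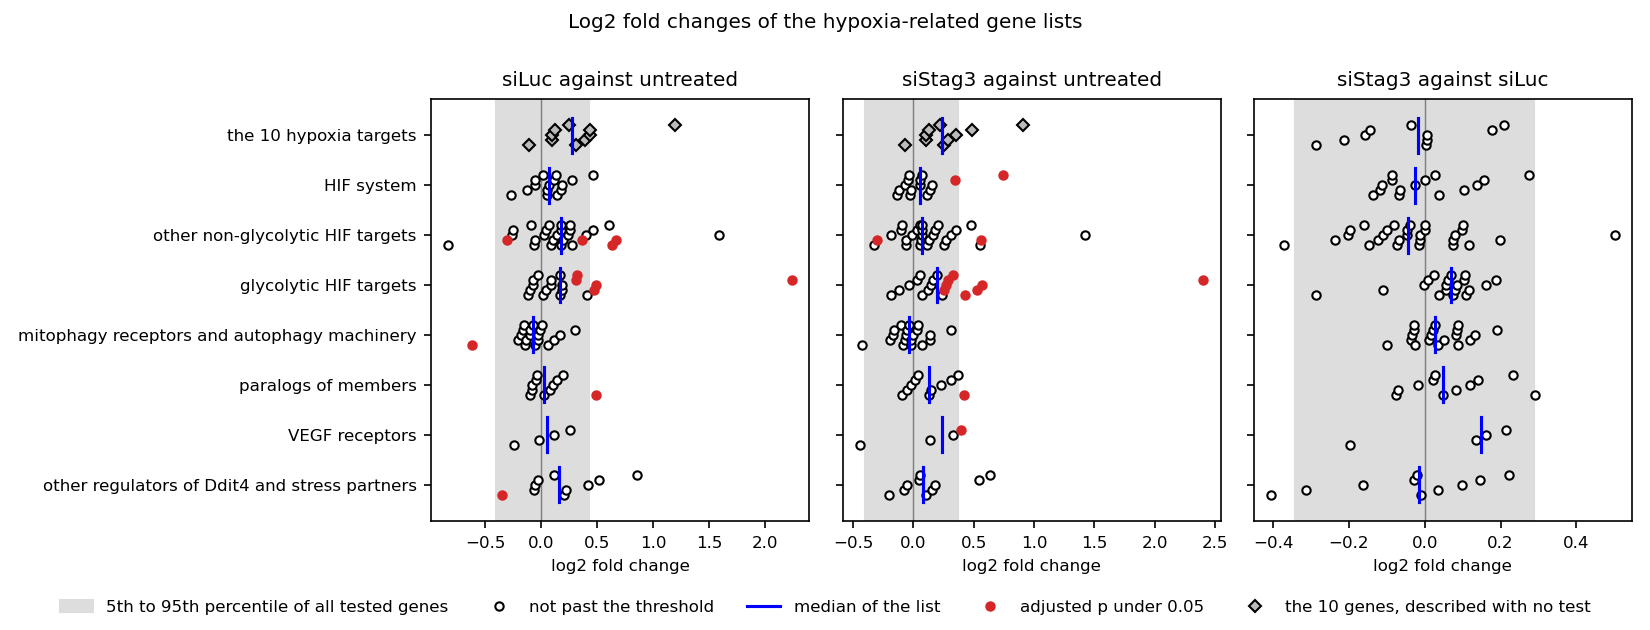
Log2 difference of each listed gene in 3 comparisons, by list. Grey bands span the 5th to 95th percentile of all tested genes, blue bars are list medians, red points passed an adjusted p of 0.05 and grey diamonds are the 10 genes where values are given with no test. Slc16a3 lies farthest right at 2.24 and 2.40, and no point is red for siStag3 against siLuc.

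The genes whose levels followed Bnip3 most closely were found by correlation of log2 CPM over the 9 libraries after subtraction of the mean of each set, among 11228 genes. They were Ddit4l (Pearson r 0.988), Septin6 (0.987), Wdr35 (0.987), Pdk1 (0.982) and the mitochondrial gene mt-Nd5 (0.981). These points share libraries and groups, so the values are descriptive. The log2 differences of siLuc from untreated cells were 0.49 for Ddit4l, 0.39 for Septin6, 0.33 for Wdr35, 0.67 for Pdk1 and 0.58 for mt-Nd5, all smaller than that of Bnip3. Among the 10 genes themselves, P4ha1 (r 0.938, rank 50 of the 11228 genes), Ddit4 (0.897, rank 162), Kdm3a (0.884, rank 208) and Bnip3l (0.855, rank 337) followed Bnip3 over the 9 libraries. Ndrg1 (0.717, rank 1452) and Egln1 (0.505, rank 3139) did so less, and Egln3 (0.121) and Vegfa (-0.247) did not. Many genes outside the 10 thus followed Bnip3 as closely. Ankrd37 was below the level required for this measure.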

How the data were processed

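The authors deposited raw counts per gene for 9 mRNA libraries (KAPA mRNA HyperPrep). The submitters' processing notes name FastQC, Salmon, DESeq2 and GRCm39 without saying what each did; the strand setting and annotation are not given in the sources used here. Columns were assigned to groups by name, and none was left unused. Counts were tested as deposited with the quasi-likelihood test of edgeR 4.0.16 in R 4.3.3 (robust fit, TMM scaling, filterByExpr, terms for group and set, all 9 libraries). P-values are two-sided, adjusted by the Benjamini-Hochberg method over 14246 genes, with a threshold of 0.05. Each SE was taken as the absolute log2 difference over the root of the F statistic. Levels in CPM use TMM factors, and CPM per kilobase uses the GENCODE M21 transcript length. That release also gave GC content and shared 31-base stretches, for 16604 gene IDs. Promoters are from RefSeq tables of GRCm38.p6.

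The 10 genes, the gene lists and the set term were chosen with earlier results of these data known. Named genes are the 10, Stag3, the core HIF genes and, per list and comparison, up to 4 called genes of largest difference. Of 2 rows for Aldoa, that with the higher count was used. Some genes that the rule would name are not reported here. The procedure was tested on simulated counts. Alternatives were DESeq2 1.42.0 size factors and its Wald test, total-count scaling, other filters, 6 libraries, no set term, Set 1 alone, a GC correction in 20 bins and each library left out; a block of set and experiment was added after the data were seen. Any 2 libraries differed in at least 96.18% of genes.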

Additional observations from a re-analysis of the deposited data

How the results depend on the processing

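Over 19 alternatives the Bnip3 log2 difference from untreated cells stayed positive, at 1.03 to 1.305 in siLuc and 0.82 to 0.95 in siStag3. Bnip3 was chosen by its siLuc difference in these same libraries, so that sign is no separate support. None of the 10 genes passed in siStag3 against siLuc in any alternative. The column names lack the replicate numbers of the titles. A fit with a replicate block of set and experiment (experiments 1 and 3 of Set 1, and Set 3), added after the data were seen, left 4 residual degrees of freedom. Libraries of Set 1 with the same experiment number did not deviate together (r -0.0254, -0.0439 and -0.0371 between groups, across 14246 genes). With the block, 317 genes passed in siLuc against untreated cells, 268 in siStag3 against untreated cells and 4 in siStag3 against siLuc. Ddit4 between the sets, Tfrc, and Epas1 in siStag3 no longer passed (edgeR adjusted p 0.0575, 0.0583 and 0.0537), nor did Ppfia4 in siLuc and siStag3 (0.0611 and 0.0754). The cause of the changes below was not tested.

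For siLuc against untreated cells, 598 genes passed, against 1328 with DESeq2, 1801 with the 6 libraries compared, 1 without the set term, 298 in Set 1 alone and 1016 with the GC correction. Leaving out 1 library gave 111 (Set 3 untreated) to 2458 (Set 3 siStag3), and each library but the experiment 3 siStag3 one moved the count by over 1.5 times. For siStag3 against untreated cells, 361 genes passed, against 2 without the set term, 949 in Set 1 alone and 932 with the GC correction. Leaving out 1 library gave 78 (experiment 1 siStag3 of Set 1) to 1591 (Set 3 siStag3), and each untreated or siStag3 library moved the count by over 1.5 times. For siStag3 against siLuc, 4 genes passed, against 22 with DESeq2, 1 with the 6 libraries compared, 51 with the GC correction, 0 without the set term (307 with an unadjusted p below 0.05) and 0 (without the experiment 1 siStag3 library of Set 1) to 4 on leaving out 1 library. Scaling by total count alone moved the share of higher genes among those called from 39.3% to 21.2% in siLuc and from 42.4% to 28.1% in siStag3, both against untreated cells, and from 50.2% to 61.7% between the sets.

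Differences near 0 changed sign. For siLuc and siStag3 against untreated cells, Egln3 (0.09 and -0.07) ran from -0.0083 to 0.181 and from -0.152 to 0.0668 on leaving out 1 library. For siStag3 against siLuc, Bnip3l (-0.04) was at 0.099 in Set 1 alone, 0.0395 with the GC correction and -0.115 to 0.0689 on leaving out 1 library. Egln1 (0.01) was at -0.0816 in Set 1 alone, -0.0451 with the GC correction and -0.0833 to 0.0871 on leaving out 1 library. Ddit4 (0.01) was at -0.0189 in Set 1 alone, -0.0582 with the GC correction and -0.0401 to 0.0588 on leaving out 1 library. Kdm3a (0.00277) was at -0.000292 with the 6 libraries compared and -0.0165 to 0.0349 on leaving out 1 library. Between the sets, Egln1 (-0.04) was at 0.00896 under total-count scaling and -0.134 to 0.0111 on leaving out 1 library, and Bnip3l (-0.12) was at 0.0877 with the GC correction. Hif1an in siLuc against untreated cells (-0.06) was at -0.11 to 0.0094 on leaving out 1 library. Ankrd37 had too few counts for the filter at a mean of 50.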
